A study of Mus musculus with 18 samples.

Results

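The comparison made here is between alveolar type II cells of Cebpa-deleted mice and those of their controls before any exposure to hyperoxia, the 0 h time point of a study of oxygen injury. Its members are 6 of the 18 arrays of the study, chosen by their titles, with 3 arrays of each genotype. The labels give mice of 7 to 8 weeks, kept in air, and type II cells isolated from the lung. Control mice carried the floxed gene, CEBP/a(flx/flx), and were littermates that lacked the rtTA or the Cre transgene. The genotype label of the Cebpa-deleted mice is CCSP/rtTA/CEBPa(flx/flx), which names no Cre. Both groups therefore share the floxed Cebpa alleles and differ in the transgenes that remove them. The design text places the removal in Clara cells from early in gestation and in type II cells from near term, and the label names CCSP, the club cell secretory protein, whose promoter is used to drive rtTA in airway and type II epithelium. No other lung cell is named as a target. The labels do not say which animals gave which array or whether any were pooled. The tests therefore rest on the spread from array to array, which may hold technical variation, and having 3 arrays of each genotype limits their precision.

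C/EBPα is a basic leucine zipper transcription factor. It binds DNA as a dimer with itself or with other C/EBP proteins, and it is known for driving the final maturation of liver, fat, myeloid and lung epithelial cells. In the distal lung it is found in type II cells, which make surfactant, the lipid and protein film that keeps alveoli open, and which renew the flat type I cells of the gas exchange surface. Its relatives C/EBPβ, C/EBPδ, C/EBPγ, C/EBPε and CHOP bind similar sites or dimerize with it.

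All levels below are log2 values made with RMA, a method that corrects, normalizes and summarizes the probes of a transcript. A difference is the mean of the 3 Cebpa-deleted arrays minus the mean of the 3 control arrays, so that 1 log2 unit is a 2-fold change. A gene is said to have risen or fallen where limma gave a p-value, adjusted by the Benjamini-Hochberg method over all 19938 genes, below 0.05. Array values are given in the order of replicates 1, 2 and 3.

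Cebpa itself stood at 10.95, 10.97 and 11.04 on the control arrays and at 10.58, 10.66 and 10.43 on the Cebpa-deleted arrays. Every Cebpa-deleted array was below every control array, and the groups did not overlap. The difference was -0.43 (SE 0.18, 95% interval -0.80 to -0.06), which left 74.3% of the control level, and it did not pass (limma, adjusted p = 0.429). The sources used here do not place the probes inside or outside the floxed segment. The array may therefore read transcript from a deleted allele, which was not tested. With replicate 3 of the Cebpa-deleted arrays left out the difference at 0 h was -0.37. At 2 and 24 h Cebpa differed by -1.10 and -1.83 and passed (limma, adjusted p = 0.00461 and 8.19e-06).

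Of the other C/EBP genes, none of the 5 measured passed. Cebpg, whose protein lacks an activation domain and dimerizes with the others, read 9.18, 9.28 and 9.16 in controls and 9.54, 9.79 and 9.67 in Cebpa-deleted cells. Its groups did not overlap, and its difference of 0.46 (SE 0.12) was short of the threshold (limma, adjusted p = 0.08). Cebpb, an activator induced by inflammatory signals, was also higher on every Cebpa-deleted array, with 8.85, 8.82 and 8.997 against 9.07, 9.27 and 9.09 (difference 0.26, adjusted p = 0.454 by limma). Cebpd (-0.28), Cebpe (-0.17) and Ddit3, the gene of CHOP (-0.31), had overlapping groups.

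**Figure D1:**
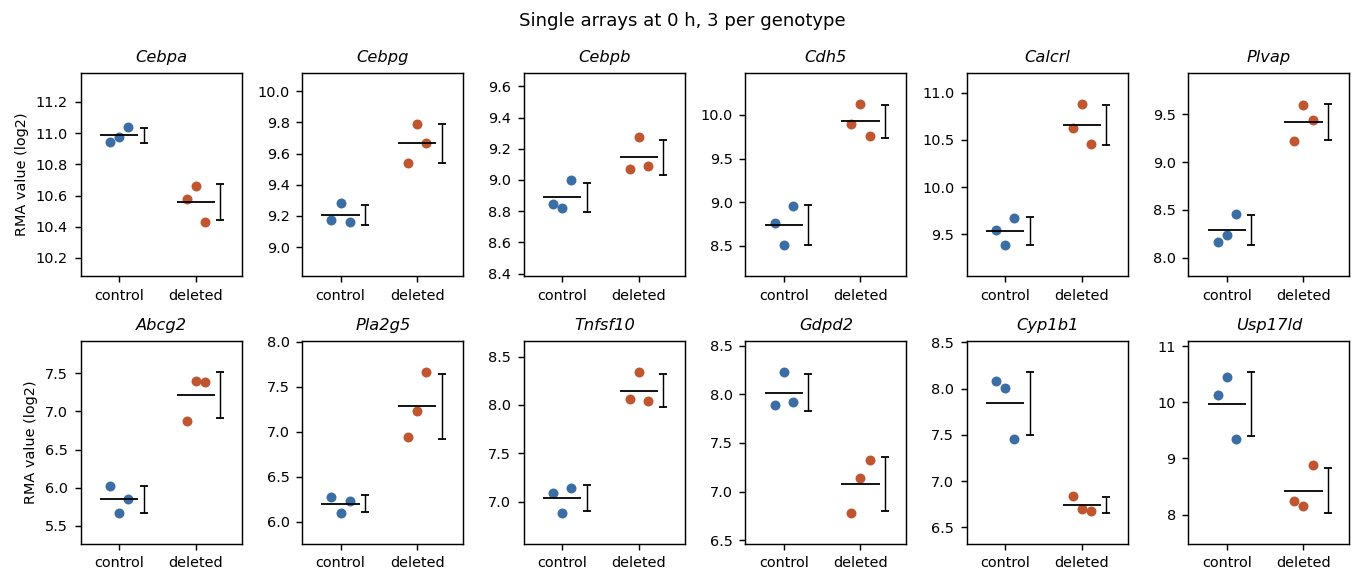
Single array values (RMA, log2, vertical axes) of 12 genes in control and Cebpa-deleted cells at 0 h. Points are arrays, the horizontal line is the mean and the bar beside it is 1 SD on each side (n = 3); Cebpa lies lower in deleted cells by 0.43 without passing the test, while Cdh5, Calcrl, Plvap, Abcg2, Pla2g5 and Tnfsf10 rose and Gdpd2, Cyp1b1 and Usp17ld fell.

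The 6 arrays were alike in their overall properties. Medians of all genes lay between 7.04 and 7.08 and interquartile ranges between 2.89 and 3.06. The small spread of the medians followed genotype, with 7.039, 7.045 and 7.045 in controls and 7.062, 7.055 and 7.082 in Cebpa-deleted arrays. Arrays of 1 genotype correlated across genes at r of about 0.993 to 0.994, a description over genes, which are not independent replicates. Principal component 1, with 32.6% of the variance, placed the controls from -14.6 to -9.75 and the Cebpa-deleted arrays from 6.79 to 18.2.

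At 0 h 171 of 19938 genes passed, 0.858% of those tested. Of these, 135 rose (0.677%) and 36 fell (0.181%). Of the 171 genes 32 differed by 2-fold or more, 26 of them higher and 6 lower in Cebpa-deleted cells. The median difference over all genes was -0.00, and 1845 genes had an unadjusted p below 0.05. All 171 called genes had groups that did not overlap, against 8.49% of all genes with every Cebpa-deleted array above the controls and 8.77% with every one below. The number of calls depended on single arrays: leaving out control replicate 2 gave 36, and control replicate 3 gave 57. Leaving out Cebpa-deleted replicate 2 gave 32, and its replicate 3 gave 46. A total of 17 genes, given below as called in all 6 fits, passed whichever of the 6 arrays was left out.

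**Figure D2:**
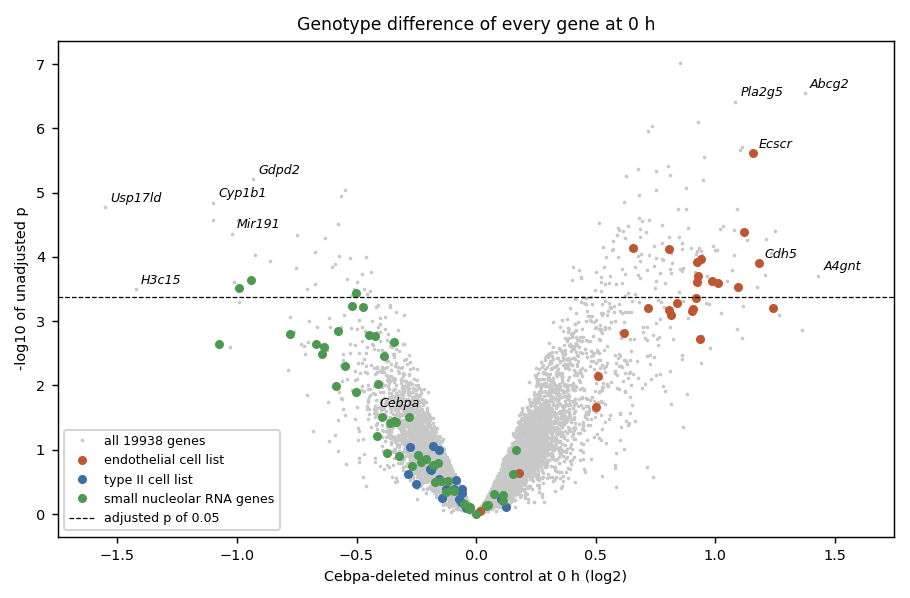
Genotype difference at 0 h (log2, horizontal axis) and -log10 of the unadjusted limma p (vertical axis) for 19938 genes, 1 point a gene. Orange points are the 26 endothelial markers, all to the right of 0, blue points the 21 type II cell markers, all between -0.28 and 0.13, and green points the 51 small nucleolar RNA genes, with a median of -0.32; the dashed line marks an adjusted p of 0.05.

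Markers of the labelled cell type were high on every array. The mean level of 21 type II cell genes, among them the surfactant proteins and the phosphate transporter gene Slc34a2, was 12.83, 12.78 and 12.83 on the control arrays and 12.69, 12.71 and 12.68 on the Cebpa-deleted arrays, on arrays whose median lay near 7. Sftpc, the surfactant protein made by type II cells alone, read 14.62, 14.60 and 14.57 in controls and 14.54, 14.54 and 14.53 in Cebpa-deleted cells. That is a difference of -0.06 (95% interval -0.21 to 0.09). Sftpb (-0.06) and Sftpa1 (-0.08) gave differences of the same size.

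None of the 21 type II genes passed, and 19 of the 21 differences were negative. The list's median was -0.13, against -0.00 over all genes, but it was -0.08 after a second quantile normalization and -0.07 with each array's interquartile range as a covariate. Slc34a2, whose transporter takes up phosphate from the alveolar lining, had the smallest p of the list. It read 14.07, 14.05 and 14.04 in controls and 13.90, 13.86 and 13.85 in Cebpa-deleted cells, with no overlap and a difference of -0.18 (95% interval -0.39 to 0.03, adjusted p = 0.643 by limma). Nkx2-1, the homeobox regulator of lung epithelium, was lower on every Cebpa-deleted array as well (10.20, 10.10 and 10.17 against 9.88, 9.98 and 10.04, difference -0.19, adjusted p = 0.798). For 12 of the 21 genes every Cebpa-deleted array was below every control array, against 8.77% of all genes.

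Surfactant and lamellar body genes, 18 in number, had a median of -0.07 with 0 calls. Lipid genes gave the same picture: the medians were -0.08 over 14 fatty acid synthesis genes, -0.10 over 15 glycerolipid and lipid droplet genes and 0.01 over 14 cholesterol synthesis genes, again with 0 calls by limma. The smallest p of the first 2 of these lists were those of Srebf1, the regulator of fatty acid synthesis genes (10.36, 10.28 and 10.35 against 10.09, 10.002 and 10.02, difference -0.29, adjusted p = 0.488), and Lpin2, a phosphatidate phosphatase (difference -0.31, adjusted p = 0.251). For both genes the groups did not overlap.

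Among 16 transcription factors of lung epithelium, 1 passed. Sox9, known from the distal progenitor tips of the embryonic lung, read 6.34, 6.55 and 6.67 in controls and 6.97, 7.33 and 7.30 in Cebpa-deleted cells. It rose by 0.68 (SE 0.12, limma adjusted p = 0.0167), a 1.6-fold change, but with an array left out only 2 of the 6 fits called it. The median of the list was -0.09.

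Type I and airway cell genes did not pass. The 14 type I genes had a median of 0.22, which rested on 1 array, since the median was -0.01 without Cebpa-deleted replicate 3. Mean levels of that list were 9.51, 9.27 and 10.04 in controls and 9.56, 9.62 and 10.49 in Cebpa-deleted cells, so replicate 3 was the highest in each genotype. Pdpn, a surface glycoprotein of type I cells, showed it plainly with 7.61, 7.30 and 8.67 against 8.00, 7.83 and 9.50. Hopx, a type I cell cofactor, did the same (8.00, 7.94 and 8.86 against 8.37, 8.62 and 9.63). Ager, the receptor for advanced glycation end products, differed by 0.09 with overlapping groups.

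Club cell genes had a median of -0.04 over 14 and ciliated cell genes one of -0.09 over 14, with 0 calls in either list. Scgb1a1, the secretory protein of club cells, read 14.03, 13.98 and 14.09 in controls and 14.03, 14.001 and 13.997 in Cebpa-deleted cells. The groups overlapped, with a difference of -0.03 (95% interval -0.18 to 0.12). Pon1, a paraoxonase on the same list, was lower on every Cebpa-deleted array (10.65, 11.02 and 11.27 against 10.54, 10.61 and 10.34) with a difference of -0.48 (adjusted p = 0.278).

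Genes of endothelial cells, the lining of blood vessels, were the group that rose. Of 26 measured endothelial markers 12 rose and 0 fell, where 0.677% of all genes rose. The calls depended on the normalization: after a second quantile normalization of the 18 arrays limma called 0 of the 26, with 23 at an unadjusted p below 0.05 and a median of 0.82. As deposited, the median difference was 0.91 and all 26 differences were positive. For 23 of them every Cebpa-deleted array was above every control array, against 8.49% of all genes. The mean level of the 26 genes was 8.01, 7.79 and 8.00 in controls and 8.71, 8.94 and 8.66 in Cebpa-deleted cells, so the groups were apart, with replicate 2 the lowest of the controls and the highest of the deleted arrays. When any 1 of the 6 arrays was left out, the number that rose fell to between 1 and 5 (1 without control replicate 2 and 1 without Cebpa-deleted replicate 2), while the median stayed between 0.80 and 0.97. In bulk RNA, a larger share of endothelial cells in an isolate and more RNA of these genes per cell cannot be told apart.

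The list holds junction and other surface proteins. Cdh5, the cadherin of endothelial junctions, read 8.76, 8.51 and 8.95 in controls and 9.89, 10.13 and 9.75 in Cebpa-deleted cells, a 2.27-fold rise. Pecam1, an adhesion molecule of the same junctions, read 9.10, 8.80 and 9.10 against 9.91, 10.11 and 9.80 and rose 1.92-fold (SE 0.19 in log2, limma adjusted p = 0.0228). Icam2, a leukocyte adhesion ligand, rose by 0.81 and Mmrn2, a matrix glycoprotein of vessels, by 0.66. The sialomucin genes Emcn and Cd34 rose by 1.10 and 1.01 and Ecscr, an endothelial surface protein, by 1.16, the last in all 6 fits. The claudin gene Cldn5 (8.995, 8.72 and 8.95 against 9.68, 9.98 and 9.77) stood at 0.92 just outside the threshold (limma, adjusted p = 0.0508).

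Receptors gave the next set. Calcrl, the receptor for adrenomedullin and calcitonin gene-related peptide, read 9.55, 9.38 and 9.67 in controls and 10.63, 10.88 and 10.46 in Cebpa-deleted cells and rose by 1.12 (SE 0.21, limma adjusted p = 0.0171). Kdr, the main receptor for vascular endothelial growth factor, read 8.96, 8.63 and 9.04 against 9.84, 9.89 and 9.69 (difference 0.93). Tie1 (0.93), Eng (0.99) and Acvrl1, the type I receptor that signals with endoglin (0.92), rose as well. Every array of these receptors was higher in Cebpa-deleted cells than in any control. The complement-related receptor gene Cd93 had the largest difference of the list, 1.24, from 8.23, 7.95 and 8.25 to 9.30, 9.67 and 9.18, yet it did not pass (adjusted p = 0.061).

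Of transcription factor genes, Erg, an ETS factor of endothelium and a member of the list, read 6.96, 6.82 and 6.95 in controls and 7.73, 8.00 and 7.79 in Cebpa-deleted cells (difference 0.92, limma adjusted p = 0.024). Outside the list, and picked from the called genes, Sox7, of the SOX F group, read 6.71, 6.79 and 6.81 against 7.57, 7.72 and 7.87, rose by 0.95 (SE 0.15, limma adjusted p = 0.00748) and was called in all 6 fits. Foxf1, a forkhead factor of lung capillaries and mesenchyme, rose by 0.86, with 8.15, 8.23 and 8.29 against 8.96, 9.21 and 9.08. Gata2, which endothelial, mast and basophilic cells share, rose by 0.82 while the 6 genes listed for mast cells and basophils had a median of 0.12.

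**Figure D3:**
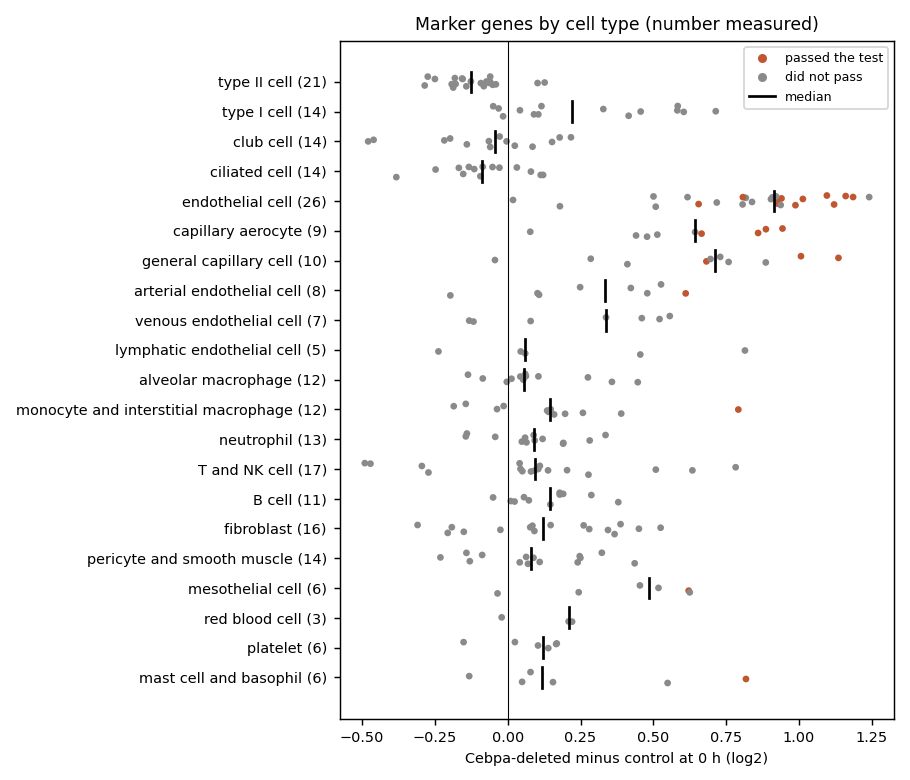
Genotype difference at 0 h (log2, horizontal axis) of marker genes for 21 cell types, with the number measured in brackets. Each point is a gene, orange where it passed, and the black bar is the list's median; the endothelial list (median 0.91) and both capillary lists (0.64 and 0.71) lie to the right, and the type II list (-0.13) lies left of 0.

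The capillary bed of the lung has 2 kinds of endothelial cell, aerocytes, which are thin and specialized for gas exchange, and general capillary cells, which act as their progenitors. Genes of both rose. Of 9 measured aerocyte genes 4 rose, with a median of 0.64, and of 10 general capillary genes 3 rose, with a median of 0.71. These calls rested on single arrays: without control replicate 2 or Cebpa-deleted replicate 2 limma called 0 of either list, and without Cebpa-deleted replicate 3 it called 0 of the aerocyte genes, although 7 or 8 genes of each list were then at an unadjusted p below 0.05. The second quantile normalization also left 0 calls in both, with 8 genes of each at an unadjusted p below 0.05. Car4, the carbonic anhydrase of aerocytes, read 8.69, 8.46 and 8.53 in controls and 9.36, 9.46 and 9.44 in Cebpa-deleted cells, a 1.81-fold rise with groups far apart. Ednrb, the endothelin receptor of the same cells, read 7.50, 7.20 and 7.62 against 8.30, 8.42 and 8.43 (difference 0.94, limma adjusted p = 0.0219). Chst1, a sulfotransferase, rose by 0.67.

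A ligand and its receptor were on separate capillary marker lists, although bulk RNA does not show which cells held either transcript. Kitl, the stem cell factor listed for aerocytes, rose by 0.89 (8.16, 8.48 and 8.56 against 9.14, 9.37 and 9.36). Kit, its receptor, listed for general capillary cells, rose by 1.01 (7.20, 7.31 and 7.25 against 8.09, 8.67 and 8.03). The peptide Apln (7.45, 7.11 and 7.56 against 7.78, 7.99 and 7.89, difference 0.51, adjusted p = 0.223) and its receptor Aplnr (difference 0.29, overlapping groups) did not pass. Plvap, which forms the diaphragms of caveolae and fenestrae, rose by 1.14, from 8.16, 8.23 and 8.46 to 9.22, 9.60 and 9.44. Gpihbp1, which anchors lipoprotein lipase to the capillary wall, was higher on every Cebpa-deleted array (difference 0.76) without passing (limma, adjusted p = 0.117).

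Genes of larger vessels gave 1 call. Of 8 arterial genes 1 rose (median 0.34), the connexin gene Gja4, from 6.76, 6.73 and 6.55 to 7.06, 7.36 and 7.46. Of 7 venous genes 0 passed (median 0.34), with Prss23 (0.56, adjusted p = 0.056) closest and Nr2f2, the factor of venous identity, at -0.12 with overlapping groups. Of 5 lymphatic genes 0 passed (median 0.06), although Flt4 (0.46) and Lyve1 (0.81) did not overlap between genotypes. Whether arterial and capillary genes differed in their shift was not tested.

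The called genes outside the 26 endothelial markers held further genes known from vessels, picked here from the calls, so that their number says nothing of vessel genes as a class. Thbd, the thrombin receptor that turns off clotting, read 8.81, 8.84 and 8.74 in controls and 9.77, 10.19 and 9.67 in Cebpa-deleted cells, a 2.11-fold rise. Aqp1, the water channel of capillaries, read 8.98, 8.91 and 9.05 against 9.92, 10.18 and 10.08 and also rose 2.11-fold (SE 0.20 in log2, limma adjusted p = 0.0171). It was the 1 of 11 ion and water transport genes that passed, and that list's median was -0.06. Ace, the angiotensin converting enzyme of capillary endothelium, rose by 0.92 (8.74, 8.58 and 8.88 against 9.55, 9.85 and 9.55), although no fit without an array called it. Myct1, a membrane protein of endothelium, rose by 1.10, from 6.59, 6.42 and 6.58 to 7.63, 7.99 and 7.29, also in all 6 fits. Rasgrp3, an activator of Ras in vessels, rose by 1.07.

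Markers of other cells that an isolate can hold moved little. Of 12 alveolar macrophage genes, 13 neutrophil genes, 17 T and NK cell genes, 11 B cell genes, 16 fibroblast genes and 14 pericyte and smooth muscle genes 0 passed, with medians of 0.06, 0.09, 0.09, 0.15, 0.12 and 0.08. The lowest and highest of these list means on any array were 5.66 (neutrophil genes) and 7.61 (alveolar macrophage genes), and whether each gene was above background was not tested. The scavenger receptor gene Marco of alveolar macrophages differed by 0.45 (6.59, 6.72 and 6.14 against 6.75, 6.96 and 7.09, adjusted p = 0.502). Gzmb, of cytotoxic cells, differed by 0.63 with overlapping groups, and the collagen genes Col1a1 and Col14a1 of fibroblasts by 0.26 and 0.39. The part of these cells in the rises above was not tested.

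C1qb was the exception among 12 monocyte and interstitial macrophage genes. It read 5.40, 5.59 and 5.44 in controls and 6.35, 6.32 and 6.13 in Cebpa-deleted cells, a rise of 0.79 (SE 0.17, limma adjusted p = 0.0343). No fit without an array called C1qb. The gene of its partner in the first complement component, C1qa, differed by 0.16 with overlapping groups. Of 6 mesothelial genes, those of the pleural lining, 1 rose and the median was 0.49. Lrrn4 read 6.74, 6.68 and 6.69 in controls and 7.22, 7.49 and 7.26 in Cebpa-deleted cells, and Msln, mesothelin, was higher on every Cebpa-deleted array (difference 0.52, adjusted p = 0.117).

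Single genes of secreted proteins also rose. Tnfsf10, the death ligand TRAIL, read 7.09, 6.88 and 7.14 in controls and 8.06, 8.35 and 8.04 in Cebpa-deleted cells. It rose 2.16-fold (SE 0.16 in log2, limma adjusted p = 0.00539) in all 6 fits. Pdgfd, a platelet-derived growth factor, rose by 0.95 (5.93, 5.62 and 6.03 against 6.79, 7.05 and 6.59) in all 6 fits. Bmp6, a bone morphogenetic protein, rose by 0.75 and was the 1 of 15 vascular growth factor genes that passed, although no fit without an array called it. Sema3a, a guidance molecule on that list, had a larger difference, 1.36, but its control arrays read 6.88, 6.73 and 8.33 and overlapped with 8.11, 8.40 and 9.52. Cxcl12, the chemokine that holds progenitor cells in place, rose by 0.68 (6.67, 6.48 and 6.71 against 7.31, 7.42 and 7.16), alone among 18 chemokine genes.

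Pla2g5, a secreted phospholipase A2, read 6.27, 6.09 and 6.23 in controls and 6.95, 7.23 and 7.67 in Cebpa-deleted cells. It rose 2.12-fold (SE 0.14 in log2, limma adjusted p = 0.00257) in all 6 fits. Mboat2, a lysophospholipid acyltransferase, rose by 0.93 (4.81, 4.59 and 4.63 against 5.37, 5.46 and 6.0) and Ltbp2, a microfibril protein of the latent TGF-β binding family, by 0.85 (6.23, 6.11 and 6.36 against 6.94, 7.02 and 7.29), both also in all 6 fits. Ltbp2 had the smallest p of the table (limma, adjusted p = 0.00194). C1qtnf7, a secreted C1q and TNF related protein, rose by 0.74 and Fstl4, a follistatin-like protein, by 1.09.

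Receptors and signalling proteins followed. Mertk, the receptor that recognizes dying cells for uptake, read 7.43, 7.35 and 7.36 in controls and 7.98, 8.23 and 8.18 in Cebpa-deleted cells, 1.68-fold higher and called in all 6 fits. Il4ra, the receptor for interleukins 4 and 13, rose by 0.45 (9.65, 9.64 and 9.40 against 9.97, 10.03 and 10.03), although no fit without an array called it. The protein kinase gene Map3k15 rose by 0.72, the inflammatory caspase gene Casp12 by 0.80, the GTPase gene Gimap5 by 0.68, Septin4 by 0.81 and the Rab regulator Dennd5b by 0.63, all in all 6 fits. Il1b, the proinflammatory interleukin, read 8.23, 8.19 and 7.75 against 8.43, 8.87 and 8.90 and rose by 0.68, but a fit of the 6 arrays at 0 h alone gave an adjusted p of 0.187. The interferon-inducible Gbp3 rose by 0.75 (1 of 14 interferon genes) and the p53 target Eda2r by 0.57 (1 of 12).

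Single genes of transport and detoxification passed, where 0.858% of all genes did. Of 19 xenobiotic metabolism genes 2 rose and 1 fell, with a list median of 0.15. Abcg2, an efflux pump for drugs and porphyrins, read 6.02, 5.66 and 5.85 in controls and 6.87, 7.40 and 7.39 in Cebpa-deleted cells. It rose 2.59-fold (SE 0.18 in log2, limma adjusted p = 0.00257) in all 6 fits and was the 1 of 48 ABC transporter genes called. Fmo1, a flavin monooxygenase, rose by 0.97 (9.13, 8.81 and 9.13 against 9.98, 10.13 and 9.85), although no fit without an array called it. Slc16a10, a transporter of aromatic amino acids, rose by 0.54. Of 335 solute carrier genes 2 rose and 0 fell, where 0.677% of all genes rose. Cyp1b1, a cytochrome P450 of the aryl hydrocarbon receptor pathway, fell by 1.10, from 8.08, 8.00 and 7.45 to 6.84, 6.70 and 6.68. It was the 1 of 82 P450 genes called.

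Stress and defence lists stayed near the median of all genes. Of 13 antioxidant enzyme genes 0 passed (median 0.01), and of 13 NRF2 targets 0 passed (median 0.11). Nqo1, a quinone reductase and NRF2 target, was nearest (7.23, 7.65 and 7.35 against 7.65, 8.34 and 7.81, difference 0.52, adjusted p = 0.0982). The unfolded protein and integrated stress list (14 genes, median -0.03), heat shock genes (9, -0.02), immediate early genes (15, -0.10), cell cycle genes (15, -0.03) and 57 ribosomal protein genes (0.02) likewise held 0 calls by limma. Il6, an interleukin of the acute phase, was lower on every Cebpa-deleted array (9.10, 8.91 and 8.73 against 8.58, 8.70 and 8.27), with a difference of -0.39 (adjusted p = 0.646).

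The largest single rises included genes with no evident link to these groups. A4gnt, a glycosyltransferase of mucin chains, read 5.95, 5.57 and 5.98 in controls and 6.64, 7.25 and 7.90 in Cebpa-deleted cells, so that its 1.43 rested on widely spread deleted arrays, and only 1 of the 6 fits called it. Tecrl, an enoyl reductase-like gene, rose by 1.28 (5.52, 5.78 and 5.71 against 6.66, 6.80 and 7.40). Mctp1, a calcium-binding membrane protein, rose by 1.25, with Cebpa-deleted values of 6.64, 7.47 and 7.55. Hepacam, an adhesion molecule first known from liver and glia, rose by 1.23, Scn7a, a sodium channel gene, by 1.21 and Slfn5, of the Schlafen family, by 1.17 (1 of 10). Olfr767, an olfactory receptor gene, rose by 1.21. Of 1027 olfactory receptor genes 2 rose and 1 fell, a share below that of all genes.

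Among protein genes that fell, Gdpd2, a glycerophosphodiesterase of the cell membrane, was the most stable to leaving out an array. It read 7.88, 8.23 and 7.92 in controls and 6.78, 7.14 and 7.32 in Cebpa-deleted cells. It fell by 0.93 (SE 0.15, limma adjusted p = 0.00748), to 52.4% of the control level, and it was the 1 lower gene called in all 6 fits. Il1f9, the gene of the epithelial cytokine interleukin 36γ, fell by 1.01, from 6.93, 7.66 and 7.09 to 5.70, 6.35 and 6.59. With only the 6 arrays at 0 h its adjusted p was 0.195. Il1f9 and Il1b were the 2 of 10 genes of the interleukin 1 family that passed, in opposite directions.

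Keratinocyte and squamous epithelial genes appeared among the falls. Krt15, a keratin of basal cells, read 7.91, 8.15 and 7.98 in controls and 7.56, 7.39 and 7.37 in Cebpa-deleted cells (difference -0.58, limma adjusted p = 0.0171). Krt4, a keratin of squamous epithelium, fell by 0.48 and Ivl, involucrin of the cornified envelope, by 0.46, with 1 and 0 of the 6 fits calling Ivl and Krt4. These 3 genes were grouped after their values had been seen, and the 12 keratin and repair genes of a list that does not hold them had a median of 0.12 with 0 calls. Rbp4, which carries retinol in plasma, fell by 0.54 (9.20, 8.91 and 9.38 against 8.72, 8.53 and 8.63). Crym, a thyroid hormone binding protein, fell by 0.55, the translational repressor gene Nanos1 by 0.71, the lipid transfer gene Tnfaip8l3 by 0.63, the complement regulator gene Cd55b by 0.60 and the kinase gene Dclk1 by 0.57.

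The 2 deepest falls were of genes with near-identical copies, whose probes may report more than 1 gene. Usp17ld, a deubiquitinase, read 10.13, 10.45 and 9.34 in controls and 8.24, 8.15 and 8.88 in Cebpa-deleted cells, and the other 3 measured genes of its family did not pass. H3c15, a histone H3 gene, read 7.30, 8.24 and 8.49 against 6.48, 6.45 and 6.82, and was the 1 of 22 histone genes called (list median -0.15). With only the 6 arrays at 0 h neither passed (adjusted p = 0.0835 and 0.0949).

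Noncoding RNA genes were frequent among the falls. Genes annotated as long noncoding RNA, microRNA or small nucleolar RNA were 1077 of the 19938 tested (5.40%), but 13 of the 36 that fell (36.1%) and 1 of the 135 that rose (0.741%). The 13 are not all independent, since Mir17hg and Mir19b-1 share 1 transcript and Mir191 and Mir425 another. Small nucleolar RNAs guide the chemical modification of ribosomal RNA. Their 51 listed genes had a median of -0.32. For 25 of them every Cebpa-deleted array was below every control, against 8.77% of all genes. Of the 51 genes 3 fell, where 0.181% of all genes did. Snord82 read 7.64, 8.00 and 8.41 in controls and 7.14, 7.03 and 6.89 in Cebpa-deleted cells, and Snord52 read 7.79, 8.08 and 8.76 against 7.42, 7.19 and 7.19. Both lay lower in every deleted array, with control arrays that were far from each other. Snora31 fell by 0.50. The mean of the 51 genes was 7.39, 7.47 and 7.59 on the control arrays and 7.24, 7.28 and 7.00 on the others, and the median moved to -0.17 without Cebpa-deleted replicate 3.

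MicroRNAs, short RNAs that repress messenger RNAs paired with bases 2 to 8 of their 5′ end (the seed), are measured on these arrays through their precursor genes. Of 300 genes listed by a microRNA symbol 4 fell, where 0.181% of all genes did, and 0 rose, with a median of -0.02. The 4 belong to 2 clusters, each transcribed as 1 precursor: Mir19b-1 and Mir17hg, and Mir191 and Mir425. Mir17hg, a host transcript, is annotated as long noncoding RNA. It is not among the 4 of 297 genes annotated as microRNA that fell. The miR-17-92 cluster, known as a promoter of cell growth and of lung development, lies at chr14:115043671-115044391 on the plus strand (GRCm38.p6, 721 bases for the 5 measured members). The pair of miR-191 and miR-425 lies at chr9:108568319-108568861 on the plus strand (543 bases), in the gene Dalrd3. The mature forms these precursor genes encode, which were not themselves measured, are given from RefSeq to show which seeds they share, with the seed in capitals, first those of the miR-17 seed, then miR-18a, the pair with the miR-19 seed, and the pair from chromosome 9.
miR-17-5p: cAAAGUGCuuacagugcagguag
miR-20a-5p: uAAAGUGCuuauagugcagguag
miR-18a-5p: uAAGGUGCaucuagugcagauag
miR-19a-3p: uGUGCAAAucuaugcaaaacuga
miR-19b-3p: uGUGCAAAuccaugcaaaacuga
miR-191-5p: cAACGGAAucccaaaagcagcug
miR-425-5p: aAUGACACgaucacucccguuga

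The host transcript of the first cluster, Mir17hg, read 6.99, 6.99 and 7.38 in controls and 6.49, 6.39 and 6.24 in Cebpa-deleted cells, and it fell by 0.75 (SE 0.14, limma adjusted p = 0.018). Mir19b-1 read 7.51, 7.72 and 7.94 against 6.88, 6.72 and 6.59 and fell by 0.996 (SE 0.18, limma adjusted p = 0.0167). For the other 4 members every Cebpa-deleted array was also below every control, without a call. These were Mir19a (difference -0.99), Mir18 (-0.78), Mir20a (-0.76) and Mir17 (-0.61), with limma adjusted p between 0.0554 and 0.1. The members share 1 precursor with Mir17hg, although its annotated span here, chr14:115044390-115046728, only begins within Mir19b-1. Their features are not taken as independent, and this cluster was singled out after its values had been seen.

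Mir191 and Mir425 both fell. Mir191 read 7.94, 8.50 and 8.46 in controls and 7.44, 6.87 and 7.54 in Cebpa-deleted cells (difference -1.02, limma adjusted p = 0.0177), and Mir425 read 8.06, 8.27 and 8.25 against 7.63, 7.46 and 7.71 (-0.59, limma adjusted p = 0.0257). Dalrd3, the gene around them, read 9.44, 9.62 and 9.59 against 9.45, 9.26 and 9.29 with overlapping groups (difference -0.22, adjusted p = 0.444). Together the 2 clusters and Mir17hg held 8 of the 9 lowest of the 300 genes with a microRNA symbol.

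Paralogous clusters encode the same seeds. miR-106b-5p and miR-93-5p, from chromosome 5, carry the miR-17 seed, as do miR-106a-5p and miR-20b-5p from chromosome X, where Mir19b-2 encodes the same mature miR-19b-3p as Mir19b-1.
miR-93-5p: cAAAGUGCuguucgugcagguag
miR-106b-5p: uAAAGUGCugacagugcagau
miR-106a-5p: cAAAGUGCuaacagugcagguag
miR-20b-5p: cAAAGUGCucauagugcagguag
Mir106b, Mir93 and Mir25 of the first of these clusters differed by 0.08, 0.11 and -0.07, and Mir106a, Mir20b and Mir19b-2 of the second by -0.06, 0.07 and 0.06. All 6 had overlapping groups, and the widest 95% interval was that of Mir106b (-0.31 to 0.47). The 3 genes on chromosome X read between 3.65 and 4.42 on the 6 arrays, near the mean of the olfactory receptor genes (4.22 to 4.32), so a fall could hardly have been seen in them. The difference between the clusters was not itself tested.

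**Figure D4:**
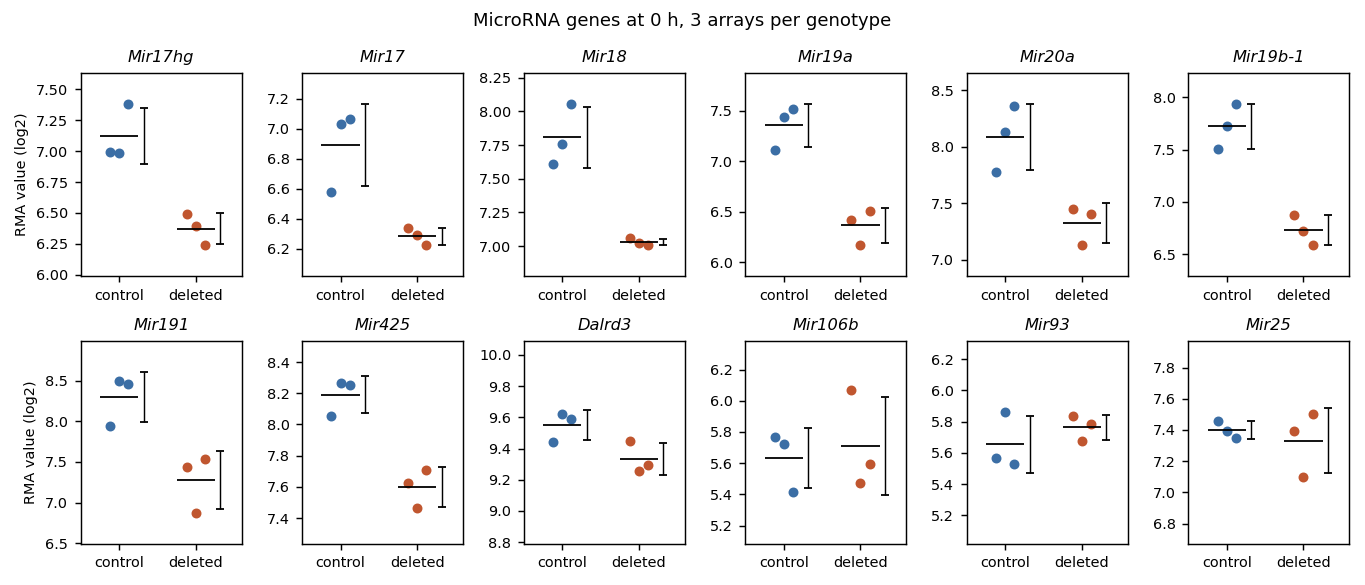
Single array values (RMA, log2, vertical axes) of 12 genes of microRNA clusters at 0 h in control and Cebpa-deleted cells. Points are arrays, the line is the mean and the bar is 1 SD on each side (n = 3). Mir17hg, the 5 measured members of its cluster, Mir191 and Mir425 separate the genotypes, whereas Dalrd3, Mir106b, Mir93 and Mir25 overlap.

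Promoters of the called genes were searched for 3 short motifs on both strands, from 250 bases before to 50 bases after each start in RefSeq's GRCm38.p6 windows. TTGCNNAA holds both ends of the palindrome that C/EBP dimers bind. It was found in 9.751% of 19177 windows, in 7 of 28 windows of genes that fell (25%) and in 11 of 133 windows of genes that rose (8.271%). Windows of 1 gene overlap in part, and no test was made. CAGGAAG, a core of ETS factor sites, was found in 12.432% of all windows, in 15.789% of those of genes that rose and in 7 of 17 windows of the endothelial list (41.176%). TATAAA, the TATA box core, was in 11.467% of all windows and in 12 of 28 of the genes that fell (42.857%). A match describes the letters of the window and not a bound site.

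The windows of Gdpd2 and Rbp4, which fell, and of Calcrl, which rose, are shown with their matches in capitals, Gdpd2 as the fall called in all 6 fits, Rbp4 as another fall called at each time point and Calcrl as an endothelial marker that rose. They were chosen after their values and matches had been seen, and Rbp4 is not among the 20 deepest falls and was called in 1 of the 6 fits. The Gdpd2 window, chrX:100729597-100729896 on the plus strand, holds TTGCNNAA with first bases 216 and 77 bases before the start, neither overlapping the other motifs. The Rbp4 window, chr19:38124762-38125061 on the minus strand, holds it 128 bases before the start, read on the opposite strand. The Calcrl window, chr2:84425217-84425516 on the minus strand, holds CAGGAAG 67 bases before the start.
Gdpd2: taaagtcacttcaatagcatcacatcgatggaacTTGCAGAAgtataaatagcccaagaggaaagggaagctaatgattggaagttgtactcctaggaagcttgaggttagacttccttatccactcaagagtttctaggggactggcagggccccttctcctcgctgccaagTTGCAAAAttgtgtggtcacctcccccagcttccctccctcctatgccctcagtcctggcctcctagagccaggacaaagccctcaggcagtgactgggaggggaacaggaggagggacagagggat
Rbp4: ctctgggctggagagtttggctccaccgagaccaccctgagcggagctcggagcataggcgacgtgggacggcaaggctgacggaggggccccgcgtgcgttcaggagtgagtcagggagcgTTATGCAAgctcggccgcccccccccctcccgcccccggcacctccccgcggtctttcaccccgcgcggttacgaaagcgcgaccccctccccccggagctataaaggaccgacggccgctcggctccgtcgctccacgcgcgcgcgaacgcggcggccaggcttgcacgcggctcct
Calcrl: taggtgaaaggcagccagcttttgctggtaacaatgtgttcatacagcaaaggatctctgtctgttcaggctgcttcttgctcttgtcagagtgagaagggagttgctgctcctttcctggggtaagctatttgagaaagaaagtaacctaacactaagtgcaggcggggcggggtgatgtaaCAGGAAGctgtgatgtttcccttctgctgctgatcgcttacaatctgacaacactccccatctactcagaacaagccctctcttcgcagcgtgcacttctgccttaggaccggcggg

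The genes called at 0 h were followed to the arrays of the same genotypes after 2 and 24 h of hyperoxia, which are other samples with controls of their own. Of the 135 genes that rose, 73 also rose at 2 h, where 1.2% of all genes did, and 97 rose at 24 h, where 24.3% did. The 73 genes were 54.1% of the 0 h list and 30.5% of the 2 h list. None of the 135 was called lower at either time. Calcrl kept differences of 1.32 and 1.21 at 2 and 24 h, Kit of 1.14 and 1.01, Scn7a of 1.65 and 1.52 and Tnfsf10 of 1.09 and 0.77, all called by limma.

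Of the 36 genes that fell at 0 h, 4 also fell at 2 h, where 0.206% of all genes did, and they were 9.76% of the 2 h list. These were Gdpd2 (-1.13), Il1f9 (-1.30), Rbp4 (-0.69) and Dclk1 (-0.50), and each of them also fell at 24 h (-0.99, -1.27, -0.85 and -0.88). At 24 h 12 of the 36 fell (33.3%), where 26.4% of all genes did, and 20 of the 36 kept a negative sign. Another 3 were called higher at 24 h: 9530091C08Rik (0.32), Prame (0.33) and Fam166a (0.295). Cyp1b1 differed by 0.18 and -0.02 at the later times.

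The 5 microRNA genes of miR-17-92 differed by -0.10 to -0.27 at 2 h without a call. At 24 h Mir17hg (-0.57), Mir18 (-0.93), Mir19a (-0.75) and Mir20a (-0.67) fell (limma), Mir19b-1 (-0.43) did not pass and Mir17 rose by 0.47. At 2 h 0 of the 171 interactions of genotype with time passed by limma, with 33 of the 135 and 28 of the 36 at an unadjusted p below 0.05, so a difference between 0 and 2 h was not shown for any of them. At 24 h the interaction passed for 14 of the 135 and 18 of the 36, all with a sign opposite to the difference at 0 h. The interactions reuse the 0 h values by which the genes were chosen, and that choice favours a sign opposite to the difference at 0 h. The share of all genes that passed the interaction is not given here. These counts are therefore not a result about the 171 genes.

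**Figure D5:**
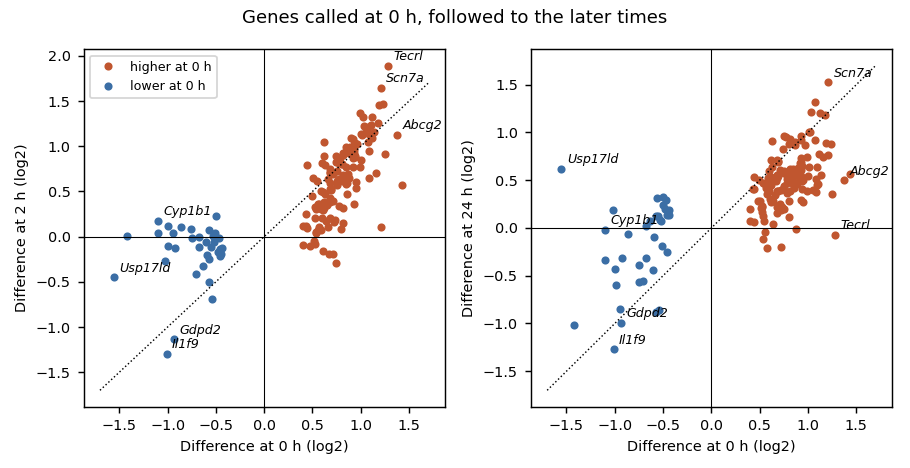
Genotype difference at 2 h (left) and 24 h (right) against that at 0 h (log2, all axes) for the 171 genes called at 0 h, 1 point a gene, orange where higher and blue where lower at 0 h. The dotted line marks equal differences; most higher genes stay above 0 (127 of 135 at 2 h, 129 at 24 h), and the lower genes lie near 0 at 2 h apart from Gdpd2, Il1f9 and a few others.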

How the data were processed

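Per the labels, RNA was taken up in GITC (guanidine thiocyanate) and labelled with biotin by an Affymetrix-based protocol. The deposited values are log2 expression values that the authors made with RMA, per the submitters' processing notes. Not given in the sources used here are the RMA version, which arrays were normalized as 1 set, the build and filters. Positions and sequences come from RefSeq (GRCm38.p6) by gene symbol and microRNA name.

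Of 35557 features, 21789 had 1 gene symbol, 1621 several and 12147 none. For 999 genes with more than 1 feature the one of highest mean over all 18 arrays was used, giving 19938 genes, with no filter on low values. In R 4.3.3, limma 3.58.1 (lmFit, then eBayes with defaults) fitted a mean for each of the 6 groups to all 18 arrays, which share 1 estimate of spread (12 residual degrees of freedom). Two-sided p-values received a Benjamini-Hochberg adjustment across the 19938 genes. Standard errors and 95% intervals are those of the moderated model, and the number of arrays limits the precision. The fit was tested on simulated data.

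The members and the 62 gene lists (2581 measured members) were chosen with earlier results of these data known. The rule for named genes took the C/EBP family, the 20 largest rises and falls without overlap, up to 4 called members, the first 3 members and the member of smallest p of each list, and genes called whichever 0 h array was left out; fewer were printed, and predicted genes were passed over. Genes of the microRNA clusters other than the called ones, Dalrd3, Rbp4, Ace, Acvrl1, Foxf1, Krt4, Ivl, Il4ra, Cd93, Sema3a, Prame, Fam166a and 9530091C08Rik were named after their values had been seen. Same-numbered arrays of the genotypes did not deviate together (r of their deviations -0.04, -0.00 and 0.04), so numbers were not taken as pairs. Other settings are given in the closing section. Figures were drawn with matplotlib 3.10.9.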

Additional observations from a re-analysis of the deposited data

Results flagged for a closer look

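The genotype difference of 32 named genes at 24 h differed from that at 0 h by limma's interaction test (adjusted p below 0.05), with the sign here of 24 h minus 0 h. No interaction at 2 h passed for the named genes. The 24 h arrays have other controls, and time and array batch cannot be told apart. Of the 32 interactions 14 passed whichever 0 h array was left out, among them those of 9530091C08Rik, Fam166a and Prame. These genes were named because they fell at 0 h and were higher at 24 h, so their interactions are no support. Many of the others were named by their 0 h values, which the interaction reuses. The share of all genes that passed is not given here, so the count of 32 is not a result about the named genes.

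Cebpa had a value of -1.41, since its difference went from -0.43 to -1.83. Cebpb (-0.51) and Cebpg (-0.67) had positive differences at 0 h (0.26 and 0.46) and negative ones at 24 h (-0.26 and -0.21). Neither gene passed at either time by itself. The epithelial genes Hopx (-1.54), Ager (-0.65), Pon1 (-0.77) and Sftpa1 (-0.43) were lower relative to controls at 24 h than at 0 h, as were Il6 (-1.59), Nqo1 (-0.83) and Sema3a (-2.42). With a 0 h array left out, the interactions of Cebpb, Ager and Pon1 passed in only 2 of 6 fits each.

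Several genes that rose at 0 h had smaller differences at 24 h. These were Abcg2 (-0.87), C1qtnf7 (-0.51), Icam2 (-0.69), Map3k15 (-0.52), Mertk (-0.55), Pdgfd (-0.68), Pla2g5 (-0.71), Slc16a10 (-0.48) and Tecrl (-1.35). None of them was stable to leaving out a 0 h array. They passed in 0 (Icam2) to 3 (Map3k15, Pdgfd and Pla2g5) of the 6 fits. Among genes that fell at 0 h the interaction was positive for Crym (0.68), Cyp1b1 (1.08), Krt15 (0.70), Krt4 (0.68), Mir191 (1.22), Snora31 (0.75), Tnfaip8l3 (0.71) and Usp17ld (2.17). It was also positive for Mir17 (1.08), which differed by -0.61 at 0 h and 0.47 at 24 h, and for Mir106a (0.62). Among genes named because they fell at 0 h and were higher at 24 h, it was 0.88 for 9530091C08Rik, 0.76 for Fam166a and 0.83 for Prame.

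Features outside the gene table carried calls too. When every feature was tested together, 5 of the 12147 without a gene symbol rose at 0 h and 13 fell. Of the 1621 with several symbols 4 rose. Called were 0.148% of the features without a symbol and 0.247% of those with several symbols, against 0.174% of those with a single symbol.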

How the results depend on the processing

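No gene that passed and that the text names changed its direction under any setting tried, but the number of calls did change. Against 171 genes (135 higher, 36 lower), leaving out 1 array at a time gave 32 to 139 genes, 27 to 114 higher and 5 to 37 lower. A second quantile normalization of the 18 arrays gave 8 (6 higher, 2 lower), all among the 171: Abcg2, C1qtnf7, Gimap5, Ltbp2, Mboat2 and Pla2g5 rose, and Sh2d1b2 and 9530091C08Rik fell. No marker of the endothelial or capillary lists was among these 8. With the 6 arrays alone that step gave 14 lower genes among 118, and with no such step they gave 20 lower among 143, of which 91 of the 143 were among the 171. An added covariate, each array's interquartile range, gave 274 (72 lower), among them all 171. Only the upper 60 percent of genes left 22 lower, and a change of at least 1.5-fold left 20 lower. Testing all features together, chosen after seeing the data, gave 36 (30 higher, 6 lower). The replicate block gave 161 genes, 143 of them shared, with 129 higher and 32 lower. Of 74 called genes fixed by the naming rule, 66 passed with the block, 45 with the 6 arrays alone, 74 with median centring, 70 with trended robust eBayes and between 19 and 50 without 1 array. Cebpa did not pass at 0 h under any setting, with differences from -0.48 to -0.37.

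Uncalled genes near 0 changed sign. When 1 array was left out, Ager ran from -0.0224 to 0.166, Scgb1a1 from -0.0553 to 0.000902, Mir106b from -0.0999 to 0.197, Mir25 from -0.155 to 0.0475, Mir106a from -0.12 to 0.00578, Mir20b from -0.0164 to 0.158 and Mir19b-2 from -0.0426 to 0.206. Under the second quantile normalization Scgb1a1 was 0.0581 over 18 arrays and 0.0423 over 6, where Sftpb was 0.00676. The number of arrays limits what the test can call, and the causes of these shifts were not tested.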
